A study of Homo sapiens with 6 samples.

Results

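The tricarboxylic acid (TCA) cycle, the reactions that feed and drain it, and the breakdown of branched-chain amino acids were followed through 38 genes, listed by symbol for their biochemical roles, of the 38557 genes in the count tables. All 38 passed the filter on low counts. The cells were cardiomyocytes made from the human iPSC line WTC11 (induced pluripotent stem cells, an established line), labelled wild type and kept in RPMI plus B27, a serum-free supplement, or in DMEM plus fatty acids. There were 6 libraries, replicates 1 to 3 of each medium, giving 1 comparison. Every fold change below puts DMEM plus fatty acids above the line and RPMI plus B27 under it. All libraries come from this single line. What the media contained beyond their names, and for how long they were used, is not given in the sources used here.

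The TCA cycle oxidizes acetyl-CoA from pyruvate, fatty acids and amino acids in the mitochondrial matrix and hands its electrons to the respiratory chain. Anaplerotic enzymes such as pyruvate carboxylase refill it, and the malate-aspartate shuttle carries reducing equivalents from the cytosol into the matrix. Leucine, isoleucine and valine enter after transamination by BCAT enzymes and oxidation by the branched-chain ketoacid dehydrogenase. In heart muscle, which relies on oxidative metabolism, the enzymes of the TCA cycle are abundant.

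Libraries held 23232324 to 31035389 gene counts, and a member had between 298 and 27384 counts in a library. The 12 cardiomyocyte markers (TNNT2, MYH6 and others) summed to 30603 to 37325 CPM (counts scaled to library size, with TMM, the trimmed mean of M values) in RPMI plus B27 and 24581 to 34376 in DMEM plus fatty acids, with none at 0 in any library, whereas 4 markers of pluripotent cells summed to at most 1.70 CPM. The 10 fibroblast and stromal markers summed to 4333 to 8391 CPM in RPMI plus B27 and 732.5 to 1943 in DMEM plus fatty acids; all 10 had a negative fold change, 6 passed the test, and 1 was at 0 in at least 1 library. The 5 smooth muscle markers summed to 1555 to 1949 and 311.2 to 1125 CPM, the 4 epicardial ones to 104 to 289.7 and 42.6 to 86.5 CPM, and the 5 endothelial ones to 29.4 to 239 and 115 to 464 CPM. Stromal transcripts thus moved with the medium, and their part in the results below was not tested. In these bulk libraries fewer cells of a type and less RNA per cell cannot be told apart.

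The 38 genes were, as a group, somewhat higher in DMEM plus fatty acids. They took 0.507% to 0.558% of all gene counts in RPMI plus B27 and 0.618% to 0.662% in DMEM plus fatty acids, without overlap between media. Their summed TMM-scaled level was 5280 to 5710 CPM and 5682 to 6562 CPM, which did overlap, with replicate 3 the lowest of either medium. Of the 38, 29 had a positive log2 fold change and 9 a negative one, with a median of 0.19, while 51% of all 16107 genes tested were positive, with a median of 0.01. By edgeR's quasi-likelihood test with Benjamini-Hochberg adjustment over all genes, 2 of the 38 passed an adjusted p of 0.05, IDH1 and OGDHL, both higher. Over all genes 1.36% passed in either direction and 0.292% upward. With the replicate number as a block the same 2 passed, against 4.78% of all genes (1.36% upward, 3.42% downward). At an unadjusted p under 0.05 there were 12 of the 38, 10 higher and 2 lower, where all genes gave 17.7%, 7.7% higher and 9.98% lower. The 3 libraries of each medium did not overlap for 18 members, 14 higher and 4 lower, which compares with 25.6% of all genes, 12.8% in each direction. The 95% intervals of 35 members lay within a 2-fold change in either direction, and those of IDH1, OGDHL and BCAT1 reached beyond it. Both calls were lost whenever any 1 of the 6 libraries was left out, with adjusted p values of 0.0961 to 0.122 for IDH1 and 0.0701 to 0.128 for OGDHL, and when the low-count filter asked for 10 counts in every library IDH1 had an adjusted p of 0.0571, and with DESeq2's size factors 0.0503.

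**Figure D1:**
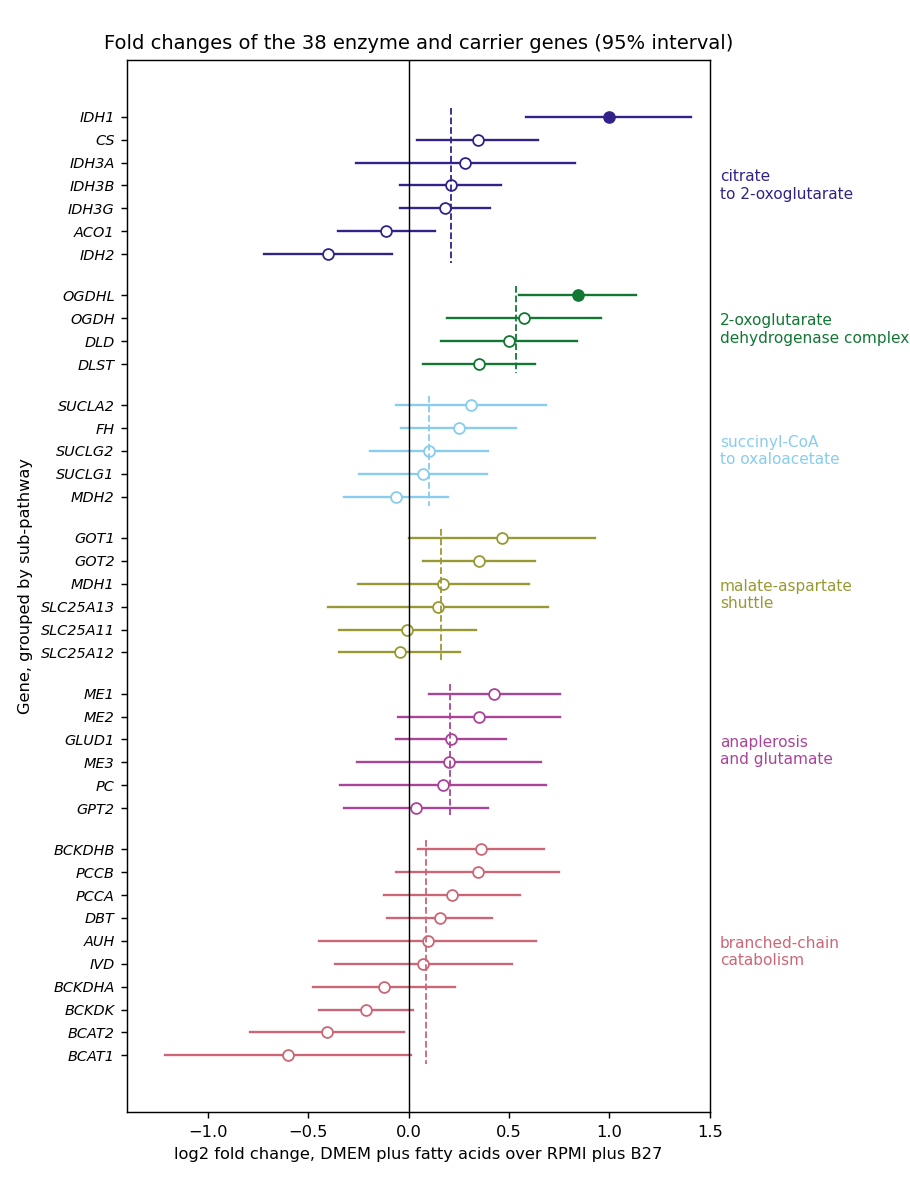
Log2 fold change (x axis) of each of the 38 genes (y axis, grouped by sub-pathway) with its 95% interval from the edgeR fit; filled points passed an adjusted p of 0.05 and dashed lines are sub-pathway medians. IDH1 (1.00) and OGDHL (0.84) lie farthest to the right, all 4 genes of the 2-oxoglutarate dehydrogenase complex lie right of 0, and BCAT1 (-0.60), BCAT2 (-0.41) and IDH2 (-0.40) lie farthest to the left.

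The sub-pathways differed in their medians, given here without a test. The 2-oxoglutarate dehydrogenase complex had the highest median log2 fold change, 0.54, with 4 of 4 genes higher and the media apart for all 4. The steps from citrate to 2-oxoglutarate had 0.21 (5 of 7 higher), anaplerotic and glutamate enzymes 0.21 (6 of 6 higher), and the malate-aspartate shuttle 0.16 (4 of 6 higher). The steps from succinyl-CoA to oxaloacetate had 0.10 (4 of 5 higher) and branched-chain catabolism 0.09 (6 of 10 higher). The lower of these medians rested on single libraries: that of the shuttle was 0.05 without RPMI plus B27 replicate 1, 0.09 without DMEM plus fatty acids replicate 2 and 0.25 without RPMI plus B27 replicate 2 or DMEM plus fatty acids replicate 3. That of the steps after succinyl-CoA was 0.18 without DMEM plus fatty acids replicate 3, and the branched-chain one was 0.01 without RPMI plus B27 replicate 3 and 0.04 without DMEM plus fatty acids replicate 3, so their order is not fixed. For comparison, 16 genes of fatty acid oxidation had a median of 0.49 with 16 higher and 2 called, 38 subunits of respiratory complex I had 0.23 with 35 higher and 0 called (9 at an unadjusted p under 0.05, and 1 called with the block), and 16 glycolytic genes had -0.75 with 14 lower and 1 called (12 at an unadjusted p under 0.05, and 7 called with the block). The median of the 38 genes, 0.19, lay closest to that of complex I. The 6 members whose enzymes act in the cytosol had a median of 0.30 and the 32 mitochondrial ones 0.19, and the cytosolic genes ran over the whole range, from BCAT1 at -0.60 to IDH1 at 1.00. The gap between these medians also depended on single libraries. They were 0.24 and 0.21 without RPMI plus B27 replicate 3, and 0.42 and 0.21 without DMEM plus fatty acids replicate 3.

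Entry into the cycle is through citrate synthase (CS), which joins acetyl-CoA to oxaloacetate. CS was at 485, 444 and 412 CPM in RPMI plus B27 and 602, 575 and 526 CPM in DMEM plus fatty acids (replicates 1 to 3), so that every DMEM plus fatty acids library was above every RPMI plus B27 library. The log2 fold change was 0.34 ± 0.13 (SE, adjusted p = 0.227), which did not pass. ACO1, the cytosolic aconitase that doubles as an iron-regulatory protein, was at 78.1, 70.5 and 69.8 CPM and then at 65.8, 66.6 and 70.0 CPM, with overlap (-0.11 ± 0.10).

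The NADP-dependent isocitrate dehydrogenases went in opposite directions. IDH1, the cytosolic enzyme that makes NADPH for reductive synthesis, rose from 64.4, 82.2 and 73.7 CPM in RPMI plus B27 to 181, 122 and 136 CPM in DMEM plus fatty acids (means 73.4 ± 8.93 and 146 ± 31.0, SD, n = 3 each). The gene lies at chr2:208236227-208266074 on the minus strand (GRCh38, GENCODE 29). Replicate 1 held both the lowest level in RPMI plus B27 and the highest in DMEM plus fatty acids, and the media did not overlap. The log2 fold change was 1.00 ± 0.18 (SE, 95% interval 0.58 to 1.41, adjusted p = 0.0492 without and 0.0416 with the replicate block), and it was 0.81 without DMEM plus fatty acids replicate 1. IDH2, the mitochondrial counterpart, was at 620.3, 528 and 483 CPM in RPMI plus B27 and at 407, 404 and 423 CPM in DMEM plus fatty acids. Its media did not overlap either, but the difference of -0.40 ± 0.14 did not pass (adjusted p = 0.190). Per kilobase of exon, IDH2 was the second most abundant of the 38 genes in RPMI plus B27 at 193 ± 24.9 CPM per kb and IDH1 the 20th at 26.3 ± 3.20 (SD, n = 3). In DMEM plus fatty acids these levels were 146 ± 3.49 and 52.5 ± 11.1 CPM per kb, so IDH2 remained above IDH1.

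The shift was plainest within libraries, where scaling plays no part. IDH1 made up 9.40% (95% Wilson interval 8.99% to 9.84%), 13.5% (12.92% to 14.04%) and 13.2% (12.7% to 13.8%) of the counts of both genes in RPMI plus B27 replicates 1 to 3, and 30.8% (30.1% to 31.6%), 23.2% (22.6% to 23.9%) and 24.3% (23.7% to 24.9%) in DMEM plus fatty acids. These intervals cover counting error only. All 3 DMEM plus fatty acids libraries were above all 3 of RPMI plus B27, and the IDH1 to IDH2 ratio was 2.60-fold higher on average (log2 difference 1.38, higher in 3 of 3 replicate numbers by 0.96 to 2.10). An exact two-sided permutation test gave p = 0.1, the smallest that 3 against 3 libraries allow, and 0.7 after adjustment over the 8 gene ratios compared.

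The NAD-dependent enzyme of the cycle, IDH3, is built from IDH3A, IDH3B and IDH3G. IDH3B was at 90.7, 97.9 and 99.2 CPM in RPMI plus B27 and 109, 119.8 and 104 in DMEM plus fatty acids. IDH3G was at 62.6, 63.9 and 65.6 CPM and then at 72.5, 72.3 and 72.8. Both were separated between media by small margins, at 0.21 ± 0.11 and 0.18 ± 0.10 (adjusted p = 0.360 and 0.376). The catalytic subunit IDH3A was at 68.0, 65.4 and 52.6 CPM against 91.7, 84.8 and 49.9, and replicate 3 was the lowest library of either medium (0.28 ± 0.23, adjusted p = 0.573). In the GENCODE annotation 60.3% of the exonic length of IDH3A lies opposite exons of ACSBG1 on the other strand, and the strand setting of the counting is not given in the sources used here, so its counts are uncertain. The same holds to a lesser degree for PCCB (25.4% of its exonic length), GOT1 (22.3%), IDH3G (15.2%), SLC25A11 (12.9%), PCCA (10.6%) and MDH1 (10.1%).

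**Figure D2:**
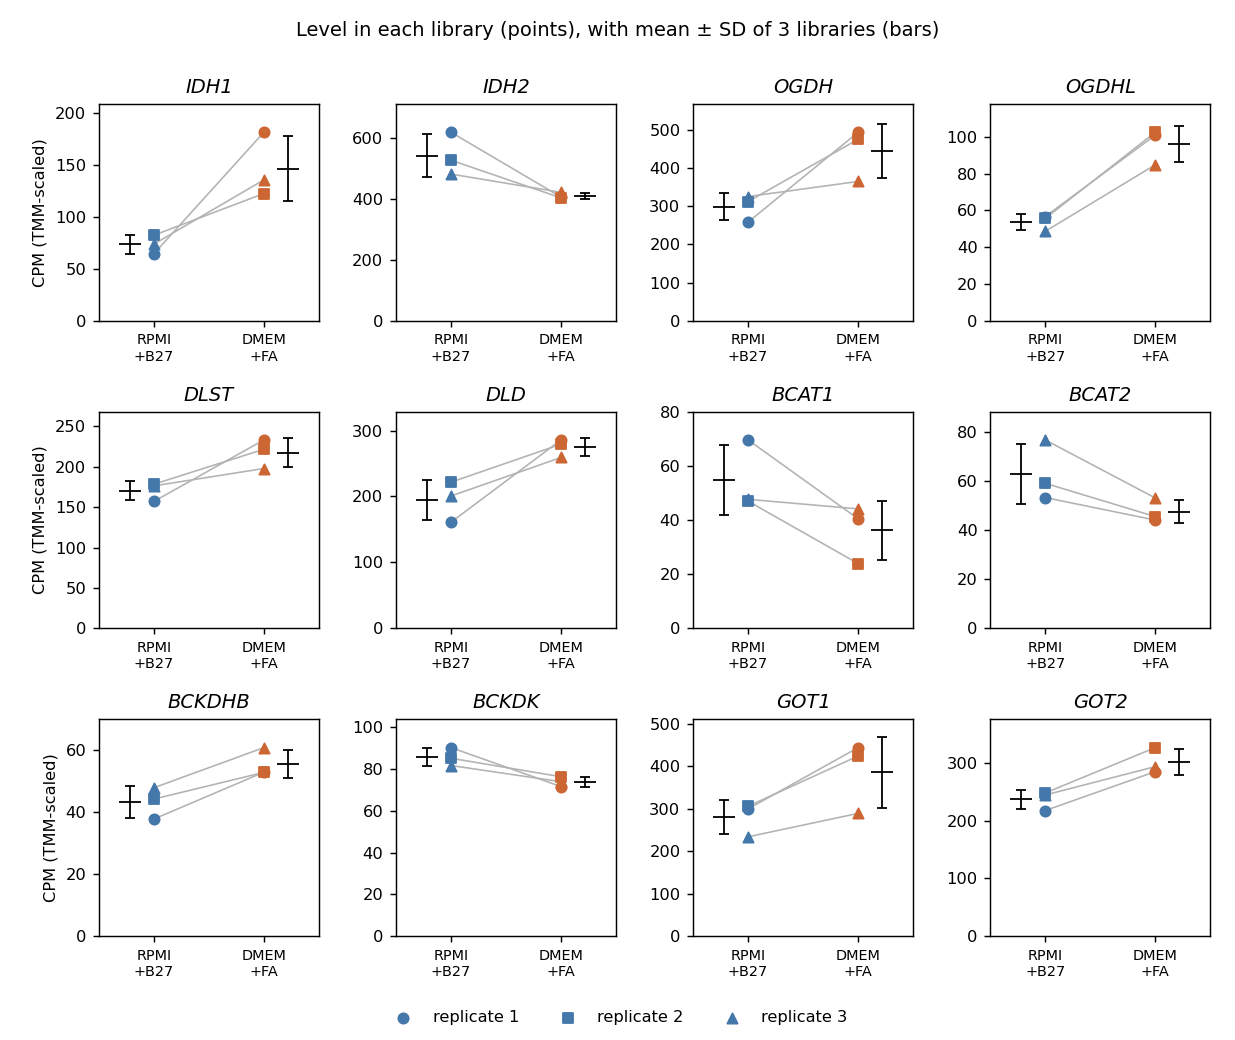
TMM-scaled CPM (y axis, from 0) of 12 of the genes in each library by medium (x axis; DMEM +FA is DMEM plus fatty acids); grey lines join libraries with the same replicate number and black bars are mean ± SD of 3 libraries. IDH1 and the 4 genes of the 2-oxoglutarate dehydrogenase complex are higher in every DMEM plus fatty acids library, and IDH2, BCAT1, BCAT2 and BCKDK are lower in every one.

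The 2-oxoglutarate dehydrogenase complex, which converts 2-oxoglutarate to succinyl-CoA and is a rate-controlling step of the cycle, was the sub-pathway in which the media were apart for every gene. OGDHL, a paralogue of the E1 subunit OGDH, rose from 56.6, 55.6 and 48.5 CPM to 101, 102 and 84.7 CPM (means 53.6 ± 4.38 and 96.0 ± 9.79, SD, n = 3 each). The gene lies at chr10:49734643-49762379 on the minus strand. OGDHL was the member with the smallest p of the 38, with a log2 fold change of 0.84 ± 0.12 (SE, 95% interval 0.55 to 1.13, adjusted p = 0.0386, and 0.0148 with the block), and the media were far apart. OGDH itself was at 259, 313 and 326 CPM and then at 494, 476 and 365 CPM. It had 0.57 ± 0.16 (adjusted p = 0.142), with the smallest gap between media in replicate 3, and passed by the DESeq2 Wald test alone (adjusted p = 0.0454, 0.0454 to 0.352 over its 12 alternatives).

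DLST, the E2 core, was at 157, 178 and 176 CPM in RPMI plus B27 and 233, 222 and 198 CPM in DMEM plus fatty acids (0.35 ± 0.12, adjusted p = 0.193). DLD, the E3 subunit shared with the pyruvate and branched-chain ketoacid dehydrogenases, was at 161, 222 and 201 CPM and then at 286, 279 and 259 CPM (0.50 ± 0.15, adjusted p = 0.148, and 0.0955 with the block). Neither passed, and for both every DMEM plus fatty acids library was above every RPMI plus B27 library. The OGDHL to OGDH ratio overlapped between media (1.21-fold, exact permutation p = 0.3, 0.7 adjusted), so that a change in the balance of the E1 paralogues was not shown. Per kilobase, OGDH at 61.9 ± 7.36, DLST at 60.1 ± 4.14 and DLD at 51.7 ± 8.20 CPM per kb did not differ beyond their spread in RPMI plus B27, while OGDHL was at 14.2 ± 1.16 (SD, n = 3). Summed over the 4 genes, the complex was at 633.0 to 768.0 CPM in RPMI plus B27 and 906.9 to 1114 in DMEM plus fatty acids.

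Downstream of succinyl-CoA the levels were close. Succinyl-CoA ligase pairs the alpha subunit SUCLG1 with either SUCLA2 (ATP-forming) or SUCLG2 (GTP-forming). SUCLG1 was at 106 to 126 and 105 to 134 CPM with overlap. SUCLG2 was at 52.7, 45.4 and 50.8 CPM in RPMI plus B27 and 50.5, 49.9 and 59.5 in DMEM plus fatty acids. SUCLA2 was at 103, 120.5 and 103 CPM and then at 154, 143 and 107. Both overlapped between media, and replicate 3 in DMEM plus fatty acids was the highest for SUCLG2 and the lowest for SUCLA2. SUCLA2 had the largest fold change of this group, 0.31 ± 0.16 (95% interval -0.06 to 0.68, adjusted p = 0.363). The SUCLA2 to SUCLG2 ratio ran from 1.94 to 2.66 in RPMI plus B27 and from 1.80 to 3.04 in DMEM plus fatty acids (exact permutation p = 0.6). Fumarate hydratase, FH, was at 137, 173 and 153 CPM against 188, 185 and 178 without overlap (0.25 ± 0.12, adjusted p = 0.339). MDH2, the mitochondrial malate dehydrogenase that closes the cycle, was at 348, 347 and 358 CPM against 349.8, 344 and 316 (-0.06 ± 0.11, 95% interval -0.32 to 0.20). With scaling to total counts only, which moved the median of all genes from 0.01 to 0.12, its fold change turned to 0.04.

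The malate-aspartate shuttle combines cytosolic MDH1 and GOT1, mitochondrial GOT2 (with MDH2), the oxoglutarate carrier SLC25A11 and the aspartate-glutamate carriers SLC25A12 (aralar) and SLC25A13 (citrin). MDH1 was the most abundant of the 38 genes per kilobase in both media, at 383 ± 48.4 and 432 ± 78.6 CPM per kb (SD, n = 3). Its CPM was 675, 827 and 665 in RPMI plus B27 and 884, 916 and 645 in DMEM plus fatty acids, where replicate 3 was the lowest of all 6 libraries (0.17 ± 0.18, adjusted p = 0.663). The aspartate aminotransferases were next to each other in level, GOT2 at 96.2 ± 6.78 and GOT1 at 95.7 ± 13.6 CPM per kb in RPMI plus B27, which did not differ beyond their spread. GOT1 was at 299.5, 306 and 234 CPM in RPMI plus B27 and 444, 424 and 289 CPM in DMEM plus fatty acids. Replicate 3 was the lowest of both media, and the DMEM plus fatty acids library with that number lay below 2 of the RPMI plus B27 libraries (0.46 ± 0.20, adjusted p = 0.282, and 0.0882 with the block). GOT2 was at 218, 248 and 245 CPM against 285, 327 and 294 without overlap (0.35 ± 0.12, adjusted p = 0.194).

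The carriers of the shuttle showed no separation. SLC25A11 was at 115, 143 and 132 CPM and then at 125, 149.8 and 114 CPM (-0.01 ± 0.15, 95% interval -0.35 to 0.33), and SLC25A12 at 109, 119.5 and 91.4 CPM and then at 109.7, 100.2 and 100.2 CPM (-0.04 ± 0.13, 95% interval -0.35 to 0.26). SLC25A13 was at 29.8, 50.7 and 58.0 CPM in RPMI plus B27 and 49.5, 55.1 and 48.7 CPM in DMEM plus fatty acids. Its fold change of 0.15 ± 0.23 rested on the low RPMI plus B27 replicate 1 and was -0.09 without it. The ratios MDH1 to MDH2 (1.17-fold, p = 0.2), GOT1 to GOT2 (1.07-fold, p = 0.7) and SLC25A13 to SLC25A12 (1.18-fold, p = 0.7) overlapped between media by exact permutation tests, each with an adjusted p of 0.7. MDH1 to MDH2 and GOT1 to GOT2 were higher in DMEM plus fatty acids in 3 of 3 replicate numbers, by 0.14 to 0.38 and 0.04 to 0.18 on the log2 scale.

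**Figure D3:**
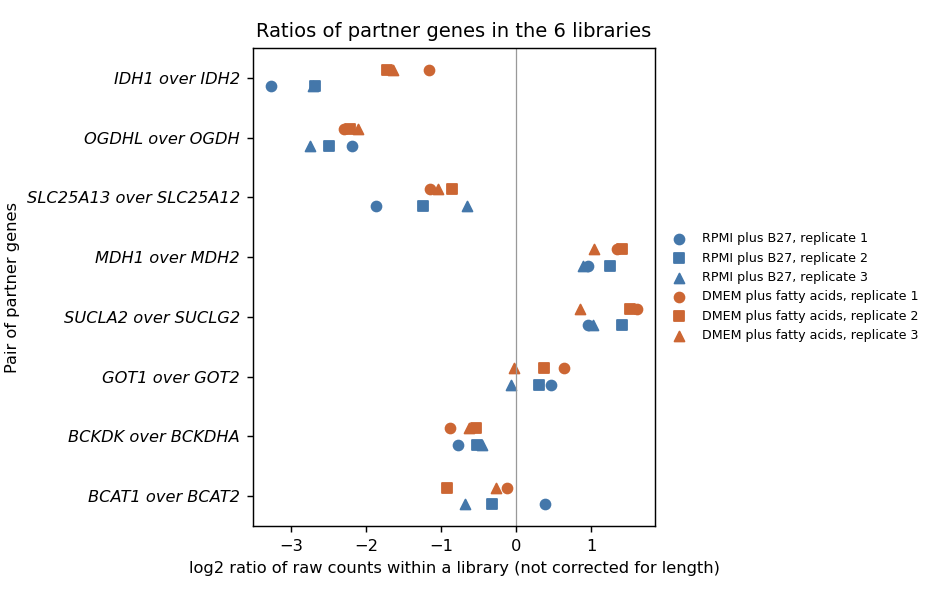
Log2 ratio of raw counts within each library (x axis) for 8 pairs of partner genes (y axis), by medium (colour) and replicate number (shape), not corrected for gene length. The media are apart for IDH1 over IDH2 and overlap for the other 7 pairs.

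Of the enzymes that refill the cycle or connect it to pyruvate and glutamate, all 6 had a positive fold change and none passed, with 1 of 6 at an unadjusted p under 0.05. That gene was ME1, the cytosolic NADP-dependent malic enzyme, at 49.6, 42.2 and 48.0 CPM in RPMI plus B27 and 71.4, 62.3 and 54.3 CPM in DMEM plus fatty acids (0.43 ± 0.14, adjusted p = 0.179). The media did not overlap. The mitochondrial malic enzymes ME2 (0.35 ± 0.17) and ME3 (0.20 ± 0.20) overlapped between media. GLUD1, glutamate dehydrogenase, was at 105 to 119 CPM against 122 to 145 without overlap (0.21 ± 0.12, adjusted p = 0.399). GENCODE names 5 pseudogenes of GLUD1, and reads that aligned to more than 1 place were set aside, so its level may be too low. The same may hold for GOT2 (4 named pseudogenes), SUCLA2 (3), SUCLG2 (2), and DLST, FH and ME2 (1 each), and for comparisons of level that use them. GPT2, the mitochondrial alanine aminotransferase, was at 74.4, 65.5 and 61.3 CPM and then at 75.1, 55.9 and 75.5 (0.04 ± 0.15, 95% interval -0.32 to 0.39). Pyruvate carboxylase, PC, was the least abundant of the 38 genes per kilobase in RPMI plus B27, at 3.56 ± 0.705 CPM per kb, and had 0.17 ± 0.22; without DMEM plus fatty acids replicate 1 it was at -0.02.

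Branched-chain amino acid genes lay on both sides of 0, and none passed the test. The transaminases, which take the amino group off leucine, isoleucine and valine, were both lower in every DMEM plus fatty acids library. BCAT1, the cytosolic form, was at 69.7, 47.1 and 47.7 CPM in RPMI plus B27 and 40.5, 23.9 and 44.2 CPM in DMEM plus fatty acids. BCAT2, the mitochondrial form and the main one in muscle, was at 53.3, 59.1 and 76.8 CPM and then at 44.1, 45.5 and 53.1 CPM. For both genes the gap between media was narrow, since BCAT1 in DMEM plus fatty acids replicate 3 and BCAT2 in the same library came within 3 CPM of the lowest RPMI plus B27 library. The log2 fold changes were -0.60 ± 0.26 for BCAT1 (95% interval -1.21 to 0.01, adjusted p = 0.293, and 0.112 with the block) and -0.41 ± 0.16 for BCAT2 (adjusted p = 0.261, and 0.0917 with the block), and neither passed. Per kilobase BCAT2 exceeded BCAT1 in both media, at 23.2 ± 4.50 against 5.41 ± 1.27 CPM per kb in RPMI plus B27 and 17.5 ± 1.78 against 3.57 ± 1.06 in DMEM plus fatty acids (SD, n = 3). The BCAT1 to BCAT2 ratio overlapped (0.85-fold, exact permutation p = 0.6) and turned to 0.07 on the log2 scale without RPMI plus B27 replicate 1. BCAT1 was highest in that same replicate, in which the stromal markers were also highest at 8391 CPM. Within DMEM plus fatty acids BCAT1 was lowest in replicate 2, in which the stromal markers were highest at 1943 CPM. A relation between BCAT1 and the stromal markers was not tested.

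The branched-chain ketoacid dehydrogenase commits the carbon skeletons to oxidation, and BCKDK, its kinase, switches it off. BCKDHB, the E1 beta subunit, was at 37.7, 44.2 and 47.8 CPM in RPMI plus B27 and 52.8, 52.8 and 60.8 CPM in DMEM plus fatty acids without overlap (0.36 ± 0.13, adjusted p = 0.225). BCKDHA, the E1 alpha subunit, was at 154, 123 and 112 CPM and then at 132, 111 and 115 CPM (-0.12 ± 0.15, adjusted p = 0.723) and changed sign to 0.02 without RPMI plus B27 replicate 1. In GENCODE 74.5% of its exonic length is shared with AC011462.1 on the same strand, so its level, and the comparisons with BCKDHB and BCKDK, are uncertain. The 2 subunits of the same enzyme thus stood on opposite sides of 0, within intervals of 0.05 to 0.67 and -0.48 to 0.23 that overlap. DBT, the E2 core, had 0.15 ± 0.11. BCKDK was at 90.3, 85.2 and 81.7 CPM and then at 71.6, 76.3 and 73.9 CPM, lower in every DMEM plus fatty acids library by a small amount (-0.21 ± 0.10, 95% interval -0.45 to 0.02, adjusted p = 0.321). The BCKDK to BCKDHA ratio was 0.93-fold, lower in 3 of 3 replicate numbers by 0.01 to 0.18 on the log2 scale (exact permutation p = 0.5).

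Further along, PCCB, the beta subunit of propionyl-CoA carboxylase, was at 78.5, 120.5 and 114 CPM against 125, 143 and 129.8 without overlap (0.34 ± 0.17, adjusted p = 0.355), and its partner PCCA had 0.21 ± 0.14 with overlap. IVD, isovaleryl-CoA dehydrogenase of leucine breakdown, was at 103, 136 and 159.6 CPM and then at 119, 138 and 162, the same order of replicate numbers in both media (0.07 ± 0.19). AUH, the leucine pathway's 3-methylglutaconyl-CoA hydratase, ran in the reverse order, at 48.7, 34.3 and 26.1 CPM and then at 43.5, 39.0 and 34.2 CPM (0.10 ± 0.23). For these last genes the spread between replicates was larger than the difference between media. Both changed sign when a single library was left out: IVD was at -0.08 without RPMI plus B27 replicate 1, and AUH at -0.09 without RPMI plus B27 replicate 3.

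**Figure D4:**
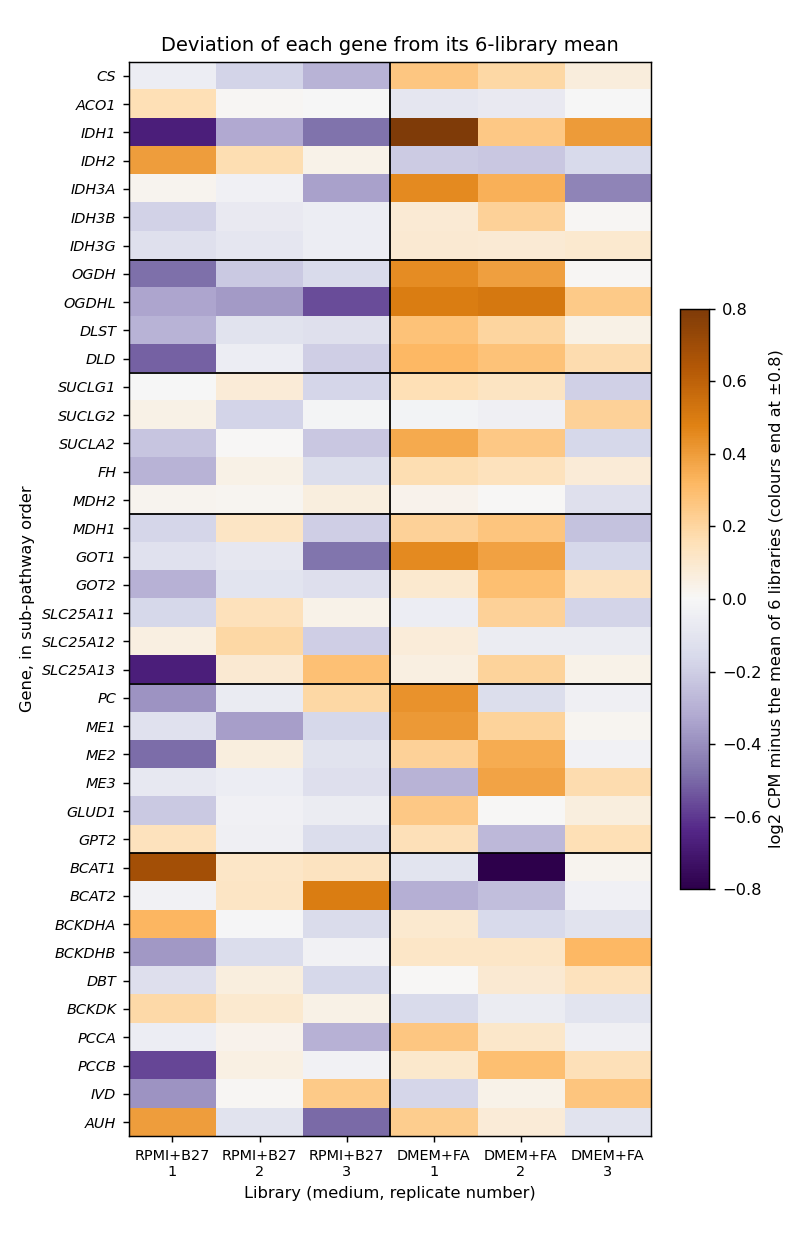
Log2 CPM of each gene (y axis, in sub-pathway order, black lines between sub-pathways) in each library (x axis; DMEM+FA is DMEM plus fatty acids) minus its mean over the 6 libraries. The block of OGDH, OGDHL, DLST and DLD is below its mean in the 3 RPMI plus B27 libraries and at or above it in the 3 of DMEM plus fatty acids, and IDH2 and BCKDK show the opposite.

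Libraries of DMEM plus fatty acids were not equal in this respect. The median deviation over the 38 genes was 0.13 in replicates 1 and 2 and 0.01 in replicate 3, against -0.13, -0.02 and -0.13 in RPMI plus B27 (log2, replicates 1 to 3). For the 2-oxoglutarate dehydrogenase complex the values were 0.38, 0.34 and 0.11 against -0.41, -0.16 and -0.18, still without overlap. Replicate 3 also had the lowest summed level of cardiomyocyte markers, 24581 CPM, and the part of this in the smaller differences was not tested.

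Other genes of the same pathways, 40 in number and not among the 38, were also mostly higher. Of these 38 were tested, 30 had a positive fold change, the median was 0.25 and 0 passed. An unadjusted p under 0.05 was found for 8, all higher. That is 21.1% of those tested, near the 17.7% of all genes, of which 7.7% were higher and 9.98% lower. With the block 1 of these pathway genes passed, PCK2, the mitochondrial phosphoenolpyruvate carboxykinase that draws oxaloacetate out of the cycle. PCK2 was at 9.42, 4.34 and 5.56 CPM in RPMI plus B27 and 35.4, 15.7 and 39.1 CPM in DMEM plus fatty acids, with a log2 fold change of 2.22 ± 0.42 (adjusted p = 0.0583 without and 0.0131 with the block). Its levels did not overlap between media, but the libraries of DMEM plus fatty acids spread widely (mean 30.1 ± 12.6 CPM, SD, n = 3). MMUT, methylmalonyl-CoA mutase, which passes propionyl carbon to succinyl-CoA, was at 44.8, 54.8 and 52.4 CPM against 70.5, 66.4 and 65.1 (0.41 ± 0.12, adjusted p = 0.148). PCK1 and GLS2 were too low to be tested.

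PCK2 is a described target of ATF4, a transcription factor of the integrated stress response whose sites with C/EBP partners have the letters TGATGNAAN. Of 12 other genes of that response 10 were higher and 2 lower, with a median log2 fold change at 1.18 and a range from -1.28 to 2.49. Called were 2, both higher, and with the block 5, all higher. At an unadjusted p under 0.05 there were 10, of which 9 were higher and 1 lower. The 12 genes summed to 563.6 to 633.0 CPM in RPMI plus B27 and 756.0 to 1024 in DMEM plus fatty acids. Of the 38 members, 35 had a promoter window in RefSeq (the 250 bases before a transcription start, GRCh38.p14, 47 windows in all). TGATGNAAN on either strand was found in the windows of 3 members, GOT1, BCAT1 and SLC25A11, or 6.38% of the 47 windows, against 3.13% of 35116 windows of all genes. ACGTG, the core of the hypoxia response element, was found for 10 members, or 23.4% of the windows against 18.5%. TCAAGGTCA, an oestrogen-related receptor element, and TCACNCCAC, a sterol element, were found in none of the 47 (0.319% and 0.883% of all windows). Other spellings of these elements were not searched, so their absence was not shown. The 10 genes of sterol synthesis were all higher, with a median of 0.79, but 0 were called and 0 had an unadjusted p under 0.05. They summed to 1385, 1194 and 1051 CPM in RPMI plus B27 and 4325, 1575 and 781 CPM in DMEM plus fatty acids (replicates 1 to 3), with overlap. Their relation to the members was not tested. The sites shown are the 3 of TGATGNAAN, since their genes had fold changes of 0.46, -0.60 and -0.01, and the ACGTG sites of the called genes. Each line gives the gene's own strand from 5′ to 3′ with the match in capitals and up to 10 bases on either side.
GOT1: aattgcattgGTTGCATCAttctcggcag
BCAT1: gtcttcctgcTGATGCAATccgctaggtc
SLC25A11: ttctcgcacgCTTCCATCAagctcctcct
OGDHL: gcggctgcgtCACGTGacccaggtaa
IDH1: gaggaagaaaACGTGcagcagctgg
The GOT1 stretch lies at chr10:99430805-99430833, that of BCAT1 at chr12:24949131-24949159, that of SLC25A11 at chr17:4940100-4940128, that of OGDHL at chr10:49762329-49762354 and that of IDH1 at chr2:208254555-208254579, all on the minus strand. GOT1 and SLC25A11 carry the match on the strand opposite to the gene, and in OGDHL ACGTG overlaps itself on both strands as CACGTG, from 16 to 21 bases before a start. The stretches of GOT1, BCAT1, SLC25A11 and OGDHL also overlap an exon of the same gene in GENCODE, and that of SLC25A11 an exon of RNF167 as well, and that of IDH1 overlaps none. In IDH1, OGDHL and BCAT1 the match lies before an inner start, within the gene as RefSeq bounds it. The windows before the outer RefSeq starts of these genes held no match. These matches describe letters in a window and show neither binding nor its effect. A part of ATF4 or of the integrated stress response in the levels of PCK2 or of the members was not tested.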

How the data were processed

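The 6 RNA sequencing libraries, 3 per medium, were labelled as biological replicates and grouped by sample title. The values the authors deposited are raw counts, listed by gene symbol in a table for each library. The submitters' processing notes name STAR, HTSeq and hg38; versions, annotation and strand setting are not given in the sources used here. Gene rows held 84.4% to 87.2% of each file. Summary rows (no feature 5.44% to 7.57%, ambiguous 3.90% to 4.15%, not unique 3.05% to 4.10%) stayed out of library sizes and tests.

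Counts were filtered by filterByExpr (minimum count 10, total 15; 16107 genes left), scaled by TMM and tested with edgeR 4.0.16 in R 4.3.3 by quasi-likelihood without covariates, adjusted over all genes (threshold 0.05; biological coefficient of variation 25.6%). Standard errors were obtained from the log2 fold change and its F value. P-values set the difference between media against the spread between the 3 libraries of a medium, with dispersion moderated over genes. Without the block they take no account of shared replicate numbers. Ratios of raw counts (0.5 added) used exact two-sided permutation tests, which cannot go below 0.1. Lengths per kilobase are exonic bases of protein-coding transcripts in GENCODE 29 (GRCh38), which may differ from the authors' annotation. The fit was also run on simulated counts, drawn for each library on its own. These held no effect shared by a replicate number, so they do not test the fit for one.

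Replicate numbers are shared between media. Same-numbered libraries deviated together from their medium's mean (r = 0.31, 0.43 and 0.37 across genes; other pairs -0.24 to -0.14), so a replicate block was fitted as an alternative, and its values stand beside results where they matter. Within a medium the deviations of a gene sum to 0. Positive values for same-numbered pairs therefore make the other pairs negative on average by construction. The least different pair of libraries had a chi-square per degree of freedom of 31.5, so none of the 6 is a repeat reading of another. This does not show that same-numbered libraries are independent of each other.

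The members, sub-pathways, other lists and ratios were chosen with earlier results of these data known. Values in every library are given for members called without or with the block, members of the 8 ratios, and the extremes of each sub-pathway; other members with values in every library were added after their values were seen. Of the other pathway genes, those called and the 3 with the smallest p were to be named; 1 of them is not reported here. Alternatives were scaling (DESeq2 1.42.0's median of ratios, total counts), filters, the DESeq2 Wald test, the block and leaving out each library.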

Additional observations from a re-analysis of the deposited data

How the results depend on the processing

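Of the 38 members, 28 kept their sign under all 12 alternatives, and the 10 that did not had absolute log2 fold changes of at most 0.17. The calls of IDH1 and OGDHL were kept with the replicate block (2 members), which changed no member's call, with no filter (2) and with total-count scaling (2). IDH1 was lost with DESeq2's size factors (1 member left) and with 10 counts in every library (1 left). Leaving out 1 library gave 0 to 0 called members and 3 to 131 called genes in place of 219. The count of genes was 539 without the filter, 119 with 10 counts in every library, 1212 by the DESeq2 Wald test and 770 with the replicate block; other pathway genes called were 1, 0, 2 and 1. By total counts 202 genes were called, 74 higher and 128 lower, against 47 higher and 172 lower.

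Total-count scaling raised the medians to 0.32 (citrate to 2-oxoglutarate), 0.31 (anaplerosis), 0.20 (branched-chain), 0.26 (shuttle), 0.22 (succinyl-CoA to oxaloacetate), 0.30 (mitochondrial) and 0.30 (all members), and turned ACO1 (0.00012), MDH2 (0.044), SLC25A11 (0.099) and SLC25A12 (0.063); it moved the median of all genes from 0.01 to 0.12. SLC25A11 was 0.0075 without the filter. Without 1 library, the branched-chain median ran from 0.010 to 0.091, that of the shuttle from 0.048 to 0.25 and that of succinyl-CoA to oxaloacetate from 0.12 to 0.18. Over the same fits the range was -0.12 to 0.083 for SLC25A11, -0.14 to 0.046 for SLC25A12, -0.090 to 0.35 for SLC25A13, -0.023 to 0.33 for PC, -0.035 to 0.17 for GPT2, -0.22 to 0.023 for BCKDHA, -0.079 to 0.23 for IVD and -0.092 to 0.36 for AUH; it was -0.47 to 0.069 for the log2 ratio of BCAT1 to BCAT2, -0.056 to 0.28 for GOT1 to GOT2 and -0.070 to 0.53 for SLC25A13 to SLC25A12. For these the cause was not tested. For the ratios the replicate block leaves the mean difference as it is by construction, and its sign-flip test over 3 pairs cannot go below 0.25.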
